A study of Mus musculus with 4 samples.

Results

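MicroRNA genes were examined for peaks of Sub1, a DNA-binding cofactor of transcription, in leukemia stem cells (LSCs) and hematopoietic stem cells (HSCs) of mouse bone marrow. Members were the genes of the RefSeq annotation of GRCm38.p6, the assembly also called mm10, whose symbols start with Mir and a digit or with Mirlet7 and that lie on the main chromosomes. This gave 1193 of 49939 annotated genes, of which 1180 were hairpin entries with a median length of 81 bp and 13 were longer host transcripts whose symbols end in hg. Each gene was extended by 1 kb on both sides, and it counted as occupied in a library when a deposited peak overlapped that window by at least 1 bp. Members within 10 kb of each other formed 903 loci, and 387 members shared a locus with another, so that 1 peak often served several members.

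The study profiled Sub1 by CUT&Tag, which releases and sequences the DNA beside an antibody target, in 2 LSC and 2 HSC libraries with 1 peak list each. LSCs, from mice whose leukemia was driven by MLL-AF9, were the cells negative for lineage markers and Sca-1 and positive for c-Kit, CD16/32 and CD34, and HSCs were CD48-CD150+LSK cells. All donors carried the Nup214fl/+ genotype, 1 floxed allele of a nuclear pore gene, and a deletion of it in these cells is not mentioned in the labels. Ages are not given, nor is it stated that replicate libraries are different mice, so the spread between libraries may be technical. One cell type name, hematopoietic stem cell, is used for LSC and HSC samples alike, and the labels state cell numbers for HSCs only. On the main chromosomes LSC 1 and LSC 2 had 40743 and 33885 peaks, against 115195 and 234417 in HSC 1 and HSC 2, so that list length differed with group. Lists cut to the 33885 peaks of highest -log10 p per library, called equal-sized lists, are therefore given beside the deposited ones for the gene lists and the main comparisons, and values without that name are from the deposited lists. Of the genes behind the sort, Ly6a (Sca-1) and Slamf1 (CD150) carried peaks only in the HSC lists, and Kit, Cd34, Cd48, Fcgr3 and Fcgr2b had peaks in all 4. The highest peak fold in HSC 1 and HSC 2 was 9.33 and 12.2 for Ly6a and 4.67 and 10.2 for Slamf1. As the HSC lists are the longer ones and no equal-sized values are given for these genes, this difference cannot be told apart from list length. A peak is not a measure of expression.

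A microRNA is cut from a hairpin within a longer transcript, first by Drosha and Dgcr8 in the nucleus and then by Dicer1 in the cytoplasm. It is loaded onto an Argonaute protein and represses messenger RNAs that pair with its seed, the bases near its 5' end. Many hairpins lie inside protein-coding genes and are made with the host transcript, while others have transcripts of their own whose start can lie far from the hairpin. In blood, miR-142 marks nearly all blood lineages, miR-223 is a microRNA of granulocytes and monocytes, and the miR-125, miR-126 and miR-99 groups are known from stem cells.

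The mature sequences of the blood microRNAs whose genes were occupied in every library are shown first, from 5' to 3', with the seed (bases 2 to 8) in capitals. All mature sequences here are those of RefSeq for GRCm38.p6, in which 1013 members had one.
Mir223, miR-223-3p: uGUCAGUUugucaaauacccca
Mir142, miR-142a-3p: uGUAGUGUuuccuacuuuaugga
Mir142, miR-142a-5p: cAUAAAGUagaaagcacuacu
Mir21a, miR-21a-5p: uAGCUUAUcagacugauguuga
Mir22, miR-22-3p: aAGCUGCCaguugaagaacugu
Mir191, miR-191-5p: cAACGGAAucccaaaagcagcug

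The next sequences come in pairs with the same seed, made from a gene with a peak in all 4 libraries, or in both HSC libraries, and from a gene with fewer peaks or none. Mir24-2 and Mir24-1 make the same mature miR-24-3p.
Mir24-2, miR-24-3p: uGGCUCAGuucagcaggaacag
Mir24-1, miR-24-3p: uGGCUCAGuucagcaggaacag
Mir146b, miR-146b-5p: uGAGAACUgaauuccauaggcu
Mir146, miR-146a-5p: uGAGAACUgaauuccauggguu
Mir10a, miR-10a-5p: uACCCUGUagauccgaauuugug
Mir10b, miR-10b-5p: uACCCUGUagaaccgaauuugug
Mir125a, miR-125a-5p: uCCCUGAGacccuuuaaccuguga
Mir125b-1, miR-125b-5p: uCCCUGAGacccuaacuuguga

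The third set shows members of the let-7, miR-15 and miR-17 seed families, which are spread over several chromosomes and whose genes differed in their peaks.
Mirlet7i, let-7i-5p: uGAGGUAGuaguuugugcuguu
Mirlet7b, let-7b-5p: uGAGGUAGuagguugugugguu
Mirlet7e, let-7e-5p: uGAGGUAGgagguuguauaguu
Mirlet7d, let-7d-5p: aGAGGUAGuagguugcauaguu
Mir16-2, miR-16-5p: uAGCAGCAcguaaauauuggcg
Mir15b, miR-15b-5p: uAGCAGCAcaucaugguuuaca
Mir15a, miR-15a-5p: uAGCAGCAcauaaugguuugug
Mir195a, miR-195a-5p: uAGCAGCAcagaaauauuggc
Mir17, miR-17-5p: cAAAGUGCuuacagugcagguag
Mir20a, miR-20a-5p: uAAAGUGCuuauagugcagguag
Mir106b, miR-106b-5p: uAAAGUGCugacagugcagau
Mir106a, miR-106a-5p: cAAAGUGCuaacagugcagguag

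Several myeloid and pan-blood microRNA genes carried some of the strongest and most regular Sub1 peaks among members. This list was chosen with earlier results of these data known. Of 19 myeloid and pan-blood members found in the annotation, 12 and 12 were occupied in LSC 1 and LSC 2, against 12 and 13 in HSC 1 and HSC 2, and the 12 were occupied in all 4, which is 63.2% of the list. Of 2 kb bins that tile the main chromosomes, 4.21% and 3.90% had a peak in LSC 1 and LSC 2, against 8.76% and 19.3% in HSC 1 and HSC 2. Across all 1193 members 17.2% had a peak in all 4 libraries, and 2.52% of bins did. The 12 members lie at few loci, since Mir142 and Mir142b, Mir191 and Mir425, Mir22 and Mir22hg, and Mir23a, Mir27a and Mir24-2 overlap or are neighbours. In equal-sized lists all 4 libraries again had 12, beside 3.71% and 3.90% of bins in LSC 1 and LSC 2, against 3.54% and 4.04% in HSC 1 and HSC 2. The members occupied in no library were Mir155 and its host Mir155hg, Mir146, Mir342, Mir511 and Mir124a-1, and Mir328 had a peak in HSC 2 alone. Mir155 is induced in activated immune cells and Mir146 encodes miR-146a, a brake on NF-kB signalling. Neither had a peak within 5 kb in either LSC library or in HSC 1, and HSC 2 had one of fold 3.07 near Mir155.

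Mir142, on chromosome 11 at 87756864 to 87756927 on the plus strand and intergenic, 1267 bp from the nearest end of a protein-coding gene, lay under 1 broad peak in every library. The fold of that peak was 172 and 147 in LSC 1 and LSC 2, against 58.9 and 89.8 in HSC 1 and HSC 2. Fold is the authors' caller's ratio of pileup to background within 1 library, and it is used only to describe and order peaks of that library, since member peaks as a whole had higher folds in LSC lists. By order within its own list, the Mir142 peak stood in the top 5.37% and 3.88% in LSC 1 and LSC 2, against the top 0.623% and 0.236% in the longer HSC 1 and HSC 2 lists. The peak ran from 87748018 to 87765330 in LSC 1 and from 87744565 to 87765372 in LSC 2, against 87747908 to 87762762 in HSC 1 and 87745195 to 87760400 in HSC 2. Its summit lay 0.19 kb from the hairpin centre in both LSC libraries, against 0.51 and 0.06 kb in HSC 1 and HSC 2. The peak thus covered the hairpin in each library, and it also reached the end of the neighbouring gene Tspoap1.

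Mir223, on the X chromosome at 96242817 to 96242926 on the plus strand, lies inside the long non-coding gene F630028O10Rik and outside protein-coding genes. The strongest peak overlapping its window had a fold of 133 and 118 in LSC 1 and LSC 2, against 16.2 and 53.0 in HSC 1 and HSC 2. The summit of the strongest peak within 5 kb, inside the non-coding gene, was at nearly the same base in every library. It lay at 96240471 in LSC 1 and 96240464 in LSC 2, against 96240471 in HSC 1 and 96240463 in HSC 2, between 2.40 and 2.41 kb upstream of the hairpin centre. In HSC 1 this summit belonged to a separate peak of fold 28, from 96239696 to 96241349, that ended before the window began. The HSC 1 fold of 16.2 therefore belongs to a second peak over the hairpin, from 96241807 to 96243130, whereas in the other libraries 1 long peak held both places. Of 90 members on the X chromosome, 8 and 5 were occupied in LSC 1 and LSC 2, against 10 and 10 in HSC 1 and HSC 2, and Mir223 was 1 of 5 in all 4. These are 8.89% and 5.56% in LSC 1 and LSC 2, against 11.1% in both HSC libraries. Autosomal members stood at 24.3% and 23.2% in LSC 1 and LSC 2, against 34.5% and 47.2% in HSC 1 and HSC 2. All 4 libraries shared 5.56% of X-linked members and 17.2% of all members.

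Mir191 and Mir425, inside Dalrd3 and on its strand, had the highest-ranked shared peak among members inside protein-coding genes. Mir191 lies on chromosome 9 at 108568319 to 108568392, and its peak had a fold of 247 and 227 in LSC 1 and LSC 2, against 83.0 and 103 in HSC 1 and HSC 2. Summits lay 0.59 and 0.65 kb upstream of the hairpin in LSC 1 and LSC 2, against 0.65 kb in both HSC libraries, 835 bp from the hairpin being the distance to the nearest gene end. Mir21a, whose product is raised in many cancers, lies at the 3' side of its host Vmp1, and its peak had a fold of 116 and 88.7 in LSC 1 and LSC 2, against 43.2 and 62.8 in HSC 1 and HSC 2. All of these peaks covered the hairpin, and none of the 4 libraries lacked one.

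Mir22 and its transcript Mir22hg on chromosome 11 had a peak in all 4 libraries, of fold 67.6 and 59.4 in LSC 1 and LSC 2, against 63.1 and 72.6 in HSC 1 and HSC 2. miR-22 is known from human and mouse myeloid disease, where it targets Tet2. The LSC 1 peak ended at 75463498, before the Mir22 hairpin, and the peaks of LSC 2, HSC 1 and HSC 2 ran over it. In each library the peak covered the annotated start of Mir22hg. The promoter window of that start, 250 bases before to 50 after, is printed because it lay under a peak in all 4 libraries, at chr11:75461289-75461588 on the plus strand (RefSeq, GRCm38.p6), with the GC box letters GGGCGG in capitals.
Mir22hg promoter: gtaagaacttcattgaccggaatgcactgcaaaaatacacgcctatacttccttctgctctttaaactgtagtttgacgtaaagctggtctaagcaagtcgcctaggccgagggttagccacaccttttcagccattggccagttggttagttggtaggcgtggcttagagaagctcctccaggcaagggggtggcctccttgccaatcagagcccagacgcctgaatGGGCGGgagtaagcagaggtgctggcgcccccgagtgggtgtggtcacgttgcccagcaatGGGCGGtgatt

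The promoter holds GGGCGG at 2 places, neither overlapping the other. On either strand the motif GGGCGG, or its reverse CCGCCC, was found in 35.7% of 32851 promoter windows of the same length. The ETS-type letters CCGGAAGT or ACTTCCGG were in 3.89% of windows and not in this one. A match is a description of letters and not of a bound factor. The promoter window of the annotated start of Mir17hg, chr14:115044140-115044439, had a peak in HSC 1 alone, of fold 5.40. That window lies downstream of the Mir17 hairpin and holds the mature miR-20a-5p, at 115044183 to 115044205. It is therefore not a window upstream of the cluster and is not set against that of Mir22hg.

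Mir23a, Mir27a and Mir24-2, a cluster on chromosome 8 that is known to be induced in myeloid cells, were occupied in all 4 libraries. The Mir23a window had peaks of fold 18.2 and 17.99 in LSC 1 and LSC 2, against 76.6 and 29.4 in HSC 1 and HSC 2. The strongest peak within 5 kb had its summit between 6.84 and 7.18 kb upstream of the hairpin in every library, at 84201719 in LSC 1 and 84201443 in LSC 2, against 84201376 in HSC 1 and 84201678 in HSC 2, outside any annotated gene. That peak had a fold of 186 in both LSC libraries, against 76.6 and 97.7 in HSC 1 and HSC 2. In HSC 1 it ran on as far as 84209283 and so reached the hairpins, while in the other libraries it ended before the window. The Mir23a window thus held the end of the stronger peak in HSC 1 alone.

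Mir146b had peaks of fold 40.8 and 24.4 in LSC 1 and LSC 2, against 22.1 and 29.6 in HSC 1 and HSC 2, and the hairpin lay under a peak in the HSC libraries, while the nearest LSC peaks were 23 and 248 bp away in LSC 1 and LSC 2. Stronger peaks, of fold 154 and 125 in LSC 1 and LSC 2, against 31.4 and 64.9 in HSC 1 and HSC 2, had their summits inside the neighbouring gene Cuedc2, 4.26 to 4.57 kb from the hairpin. Mir150, which restrains Myb in lymphoid cells, had window peaks of fold 215 and 139 in LSC 1 and LSC 2, against 29.97 and 59.0 in HSC 1 and HSC 2. In LSC 1, LSC 2 and HSC 2 the summit of that peak lay inside Rpl13a, a ribosomal protein gene, 6.90 to 6.91 kb from the hairpin, so the Mir150 peaks of those libraries were also peaks of Rpl13a. Mir210, the microRNA of the hypoxia response, had a peak in all 4, of fold 28.0 and 79.8 in LSC 1 and LSC 2, against 9.82 and 28.6 in HSC 1 and HSC 2. The LSC 2 peak had its summit inside Rassf7, 5.47 kb from the hairpin, so it was also a peak of Rassf7. In the other libraries the strongest peak within 5 kb also had its summit in Rassf7. Its fold was 112 in LSC 1, against 30.5 and 28.7 in HSC 1 and HSC 2.

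**Figure D1:**
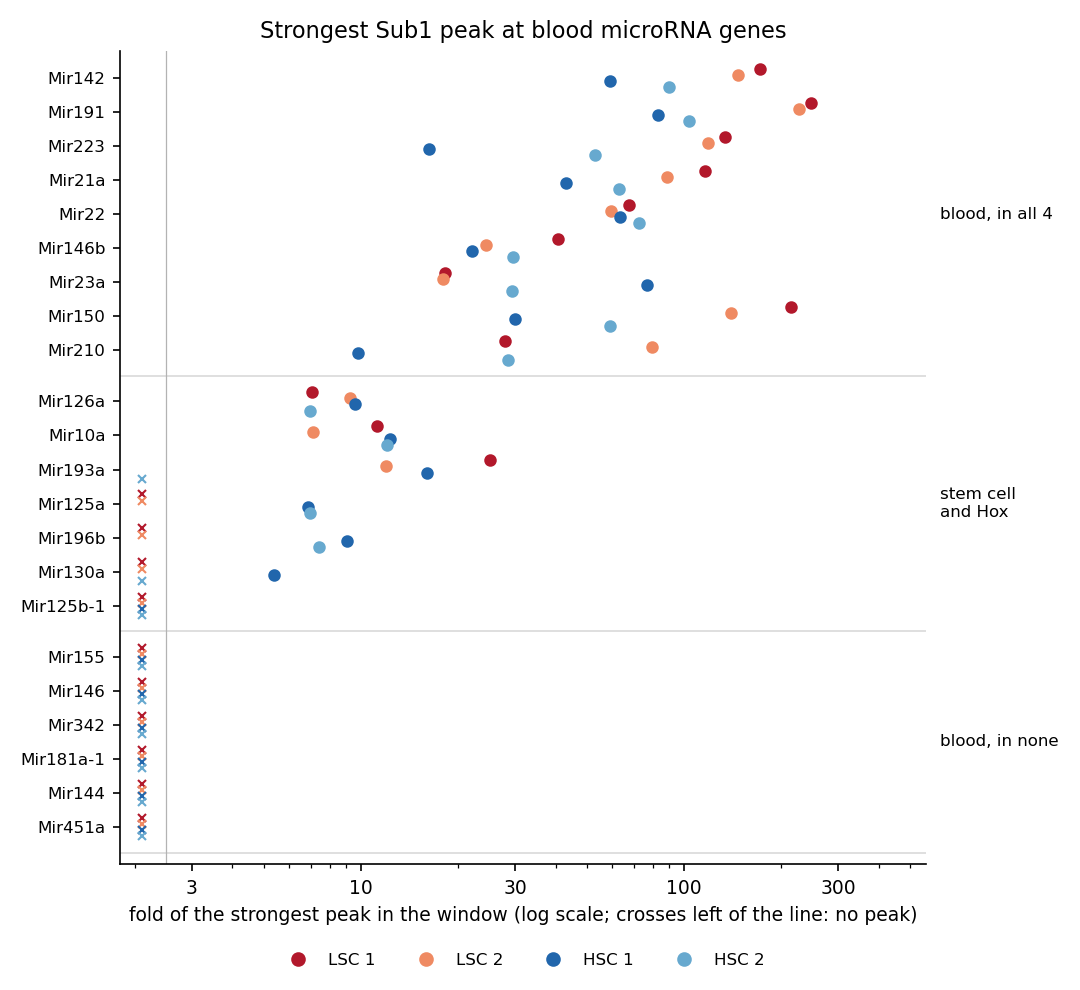
Each row is a microRNA gene, and each point is the fold of the strongest peak overlapping its window in 1 library, on a log scale, in the authors' unit, with a cross where there was no peak. Mir142, Mir191 and Mir21a had a peak in every library, the stem cell and Hox genes plotted had folds of 25.1 or less, and Mir155, Mir146, Mir342, Mir181a-1, Mir144 and Mir451a had none.

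Members known from stem cells had counts that turned with list length, as did the shares of all members. Of 21 such members at 12 loci, 5 and 4 were occupied in LSC 1 and LSC 2, against 9 and 9 in HSC 1 and HSC 2, and 3 were occupied in all 4, namely Mir22, Mir126a and Mir126b. The 3 are 14.3% of the list, beside 17.2% of all members in all 4. In equal-sized lists 5 and 4 were occupied in LSC 1 and LSC 2, against 4 and 1 in HSC 1 and HSC 2, with Mir22 alone in all 4. All members stood at 23.1% and 21.9% in LSC 1 and LSC 2, against 32.8% and 44.5% in HSC 1 and HSC 2. In equal-sized lists they stood at 21.6% and 21.9% in LSC 1 and LSC 2, against 20.2% and 19.4% in HSC 1 and HSC 2. Of all members 13.8% were occupied in all 4 equal-sized lists. Mir126a, which restrains growth signalling in stem cells, lies inside Egfl7 and had peaks of fold 7.03 and 9.27 in LSC 1 and LSC 2, against 9.58 and 6.97 in HSC 1 and HSC 2. Mir99b, Mirlet7e and Mir125a, neighbours inside Spaca6 on chromosome 17, had peaks in HSC 1 and HSC 2 and in no LSC library. At Mir125a those peaks had a fold of 6.88 in HSC 1 and 6.97 in HSC 2, and the nearest LSC peaks lay 6642 and 6740 bp away in LSC 1 and LSC 2. These HSC peaks stood at 55.4% and 40.8% of the HSC 1 and HSC 2 lists, in the order from the strongest, and in equal-sized lists none of the 3 genes had a peak in any library. Their paralogs Mir125b-1, Mir125b-2, Mir99a, Mir100 and Mirlet7c-1 had no peak in any library, nor had Mir193b or the Mir29 genes. Mir193a was occupied in LSC 1, LSC 2 and HSC 1, with folds of 25.1 and 11.99 in LSC 1 and LSC 2, against 15.97 in HSC 1, and the nearest HSC 2 peak was 1258 bp from the hairpin. Mir33, inside the sterol regulator gene Srebf2, had a peak of fold 6.13 in LSC 1 and none in LSC 2, against 6.39 and 9.33 in HSC 1 and HSC 2.

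Of 6 members of the Hox clusters, 1 and 1 were occupied in LSC 1 and LSC 2, against 2 and 4 in HSC 1 and HSC 2. In equal-sized lists each library had 1, Mir10a. Mir10a, inside Hoxb3, had a peak in all 4, of fold 11.2 and 7.09 in LSC 1 and LSC 2, against 12.3 and 12.04 in HSC 1 and HSC 2. Its homolog Mir10b, in the Hoxd cluster, had a peak of fold 3.07 in HSC 2 alone. Mir196b, a microRNA of the Hoxa cluster that is raised in MLL-rearranged leukemia, had peaks in both HSC libraries, of fold 9.09 and 7.44 in HSC 1 and HSC 2, and no peak in its window in either LSC library. A peak inside its neighbour Hoxa9 was present in all 4 libraries, with summits 4.22 and 4.26 kb from the hairpin in LSC 1 and LSC 2, against 4.21 and 4.18 kb in HSC 1 and HSC 2. The Hoxa9 peak had a fold of 62.8 and 35.4 in LSC 1 and LSC 2, against 14.7 and 22.2 in HSC 1 and HSC 2. So the LSC lists had no peak at the Mir196b hairpin beside a peak at Hoxa9, and the deposited HSC lists had both. In equal-sized lists no library had a peak at Mir196b, so this difference was not present in them.

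Among 35 members known from MLL-rearranged leukemia, 13 and 10 were occupied in LSC 1 and LSC 2, against 16 and 17 in HSC 1 and HSC 2, with 10 in all 4. These 10 are 28.6% of the list, beside 17.2% of all members in all 4, and all members were occupied at 23.1% and 21.9% in LSC 1 and LSC 2, against 32.8% and 44.5% in HSC 1 and HSC 2. The 10 were Mir17, Mir18, Mir19a, Mir106b, Mir93, Mir25, Mir10a, Mir150, Mir21a and Mir34a, at fewer loci. In equal-sized lists the counts were 12 and 10 in LSC 1 and LSC 2, against 9 and 3 in HSC 1 and HSC 2, with 3 in all 4. The order of the groups in this list thus turned with list length, as it did over all members. HSC 2 had the lowest count in equal-sized lists. All members were then occupied at 21.6% and 21.9% in LSC 1 and LSC 2, against 20.2% and 19.4% in HSC 1 and HSC 2. In all 4 equal-sized lists 13.8% of all members were occupied.

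The Mir17 to Mir92-1 cluster on chromosome 14, which promotes growth and is amplified in some lymphomas, had a peak just upstream of its first hairpin. At Mir17 the peak had a fold of 53.7 and 26.2 in LSC 1 and LSC 2, against 19.2 and 10.0 in HSC 1 and HSC 2. Its summit lay 1.26 and 1.15 kb upstream of Mir17 in LSC 1 and LSC 2, against 1.38 kb in HSC 1. Over the 7 members of the run, 5 and 3 were occupied in LSC 1 and LSC 2, against 7 and 7 in HSC 1 and HSC 2. In LSCs the windows of the later hairpins did not reach the upstream peak, and the nearest peak to Mir92-1 was 1095 and 1374 bp away in LSC 1 and LSC 2. HSC 1 had a further peak of fold 5.40 over the later hairpins. In HSC 2 the highest fold in the windows of the run was 10.2, at another peak than that of Mir17. The strongest HSC 2 peak within 5 kb of Mir17 had a fold of 13.7, with its summit 3.69 kb upstream. The related Mir106b, Mir93 and Mir25, inside the replication gene Mcm7, were occupied in all 4, and the related X-linked run from Mir363 to Mir106a in none.

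Members of lymphoid and of erythroid cells were occupied in all 4 libraries at 21.4% in either list, beside 17.2% of all members. Of 14 lymphoid members, 3 and 3 were occupied in LSC 1 and LSC 2, against 4 and 7 in HSC 1 and HSC 2, with Mir150, Mir15b and Mir16-2 in all 4 and 6 in none. In equal-sized lists the counts were 3 and 3 in LSC 1 and LSC 2, against 3 and 1 in HSC 1 and HSC 2. Mir181a-1, Mir181b-1, Mir181a-2 and Mir181b-2, which act in lymphocyte development, had none. Of 14 erythroid and megakaryocyte members, 6 and 3 were occupied in LSC 1 and LSC 2, against 3 and 7 in HSC 1 and HSC 2, with Mir150, Mir191 and Mir210 in all 4 and 7 in none. In equal-sized lists they were 6 and 3 in LSC 1 and LSC 2, against 3 and 3 in HSC 1 and HSC 2. Mir144, Mir451a and Mir451b, the erythroid cluster, Mir486, and Mir221 and Mir222, whose products target Kit, had none. Of 45 members known from muscle, nerve, liver, epithelia or early embryos, 34 had no peak in any library, and 4 and 3 were occupied in LSC 1 and LSC 2, against 6 and 9 in HSC 1 and HSC 2. Of all members 49.8% had no peak in any library, and of bins 77.7%. In equal-sized lists 42 of the 45 had none, and 3 and 3 were occupied in LSC 1 and LSC 2, against 3 and 2 in HSC 1 and HSC 2. The 3 in all 4 deposited lists were the epithelial Mir141, Mir200c and Mir203. At Mir203 the fold was 47.3 and 36.2 in LSC 1 and LSC 2, against 19.2 and 8.85 in HSC 1 and HSC 2. Mir141 and Mir200c, which lie 969 and 1377 bp from a gene end, shared their peaks.

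Genes that make identical or same-seed microRNAs did not always share the same set of occupied libraries. Of 42 mature sequences made at 2 or more loci, 26 came from loci with different sets of occupied libraries, and 16 came from loci with no peak anywhere. For 3 of them, miR-24-3p, miR-3074-5p and miR-8099, 1 locus had a peak in all 4 libraries and another in none. The occupied Mir24-2 and Mir3074-2 lie in 1 locus on chromosome 8, so miR-24-3p and miR-3074-5p are not separate cases. The 2 arms of a hairpin were also counted as separate sequences, as for miR-9-5p and miR-9-3p. Of all members 49.8% had no peak in any library and 17.2% had one in all 4, so members at large also differed in their sets. Whether genes of a shared mature sequence differed more than other members was not tested. Mir24-2 on chromosome 8 had peaks of fold 18.2 and 17.99 in LSC 1 and LSC 2, against 76.6 and 29.4 in HSC 1 and HSC 2, whereas Mir24-1, inside Aopep on chromosome 13, had none. The nearest peak to Mir24-1 lay 50646 and 16547 bp away in LSC 1 and LSC 2, against 13280 and 1708 bp in HSC 1 and HSC 2. Mir16-2, inside Smc4, had peaks of fold 10.5 and 6.54 in LSC 1 and LSC 2, against 9.58 and 8.74 in HSC 1 and HSC 2, and Mir16-1, which makes the same miR-16-5p inside the long non-coding gene Dleu2, had a peak of fold 3.31 in HSC 2 alone. Mir24-2 and Mir24-1, and likewise Mir16-2 and Mir16-1, make the same mature sequence. A measurement of that mature RNA could not be assigned to 1 of the loci.

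Of 176 seeds shared by 2 or more loci, 38 had a locus occupied in all 4 libraries and a locus occupied in none, 33 had no occupied locus and 3 had all loci occupied in all 4. Beside these counts, 17.2% of all members were occupied in all 4 libraries and 49.8% in none. Whether seed families departed from members at large was not tested. In the let-7 family, whose members restrain growth and are blocked by Lin28 proteins, 3 and 1 of 12 genes were occupied in LSC 1 and LSC 2, against 3 and 8 in HSC 1 and HSC 2. In equal-sized lists the counts were 3 and 1 in LSC 1 and LSC 2, against 1 and 3 in HSC 1 and HSC 2. Of all members, 23.1% and 21.9% were occupied in LSC 1 and LSC 2, against 32.8% and 44.5% in HSC 1 and HSC 2. The equal-sized shares of all members were 21.6% and 21.9% in LSC 1 and LSC 2, against 20.2% and 19.4% in HSC 1 and HSC 2. Mirlet7i alone was occupied in all 4, with folds of 69.1 and 52.5 in LSC 1 and LSC 2, against 25.8 and 30.7 in HSC 1 and HSC 2. Mirlet7b and Mirlet7c-2 shared a peak in LSC 1, of fold 5.59, and in HSC 2, of fold 12.7, and Mirlet7d had none. In the miR-15 seed family, Mir195a had no peak in LSC 1 and a fold of 10.0 in LSC 2, against 60.4 and 21.0 in HSC 1 and HSC 2. It lies 69 bp from the end of a protein-coding gene, and its HSC 1 peak had its summit 4106.5 bp downstream of the hairpin. Mir146b was occupied in all 4 and Mir146 in none, although miR-146b-5p and miR-146a-5p share their seed.

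**Figure D2:**
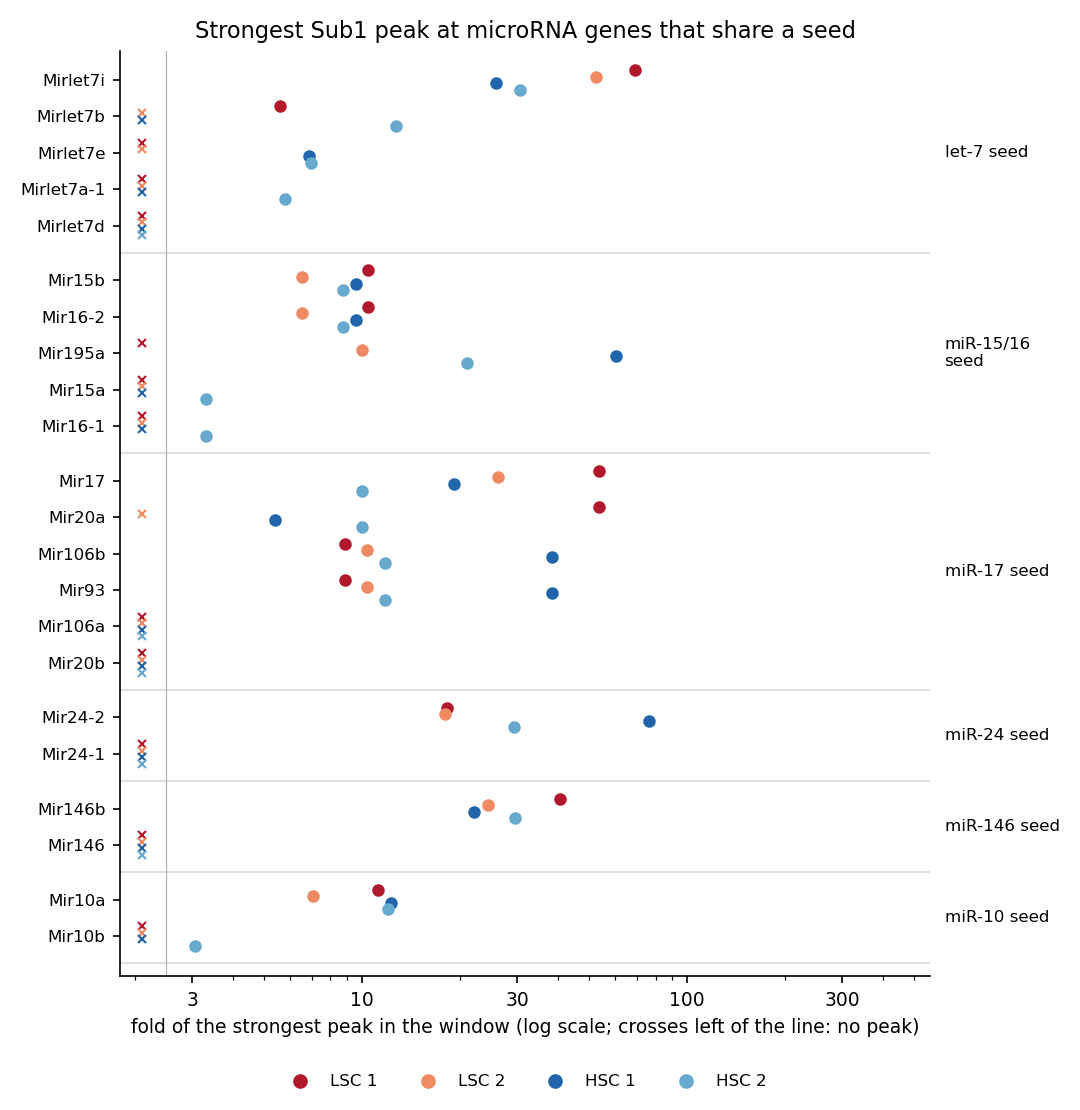
Rows are microRNA genes grouped by shared seed, and points give the fold of the strongest peak overlapping the window in each library, on a log scale, with a cross where there was no peak. Within each family at least 1 gene had peaks in all 4 libraries, such as Mirlet7i, Mir16-2, Mir17, Mir24-2, Mir146b and Mir10a, and at least 1 had none or a peak in HSC 2 alone.

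Over all members, 276 and 261 were occupied in LSC 1 and LSC 2, against 391 and 531 in HSC 1 and HSC 2. These are 23.1% and 21.9% in LSC 1 and LSC 2, against 32.8% and 44.5% in HSC 1 and HSC 2. Of 1361207 bins of 2 kb that tile the main chromosomes, unsequenced gaps included, 4.21% and 3.90% had a peak in LSC 1 and LSC 2, against 8.76% and 19.3% in HSC 1 and HSC 2. MicroRNA genes lay above bins in 4 of 4 libraries, by a mean of 21.5 ± 3.599 percentage points (SD, n = 4 libraries; two-sided exact permutation test, p = 0.125, the smallest that 4 libraries allow). The mean share of members was 22.5% ± 0.889 in LSCs and 38.6% ± 8.30 in HSCs (SD, n = 2 each), a difference of -16.1 percentage points (two-sided exact permutation test, p = 0.33, the smallest that 2 libraries against 2 allow). In equal-sized lists the shares were 21.6% and 21.9% in LSC 1 and LSC 2, against 20.2% and 19.4% in HSC 1 and HSC 2, a difference of 1.97 percentage points with its sign turned, so the difference in the deposited lists cannot be told apart from their length. Other classes of small RNA genes differed from microRNA genes, with 15.1% and 15.6% in LSC 1 and LSC 2, against 20.9% and 32.2% in HSC 1 and HSC 2, for 1340 snoRNA genes. For 408 tRNA genes the shares were 58.3% and 57.8% in LSC 1 and LSC 2, against 62.7% and 71.3% in HSC 1 and HSC 2. MicroRNA genes thus lay above snoRNA genes by a mean of 9.60 ± 2.94 percentage points and below tRNA genes by a mean difference of -32.0 ± 4.36 percentage points (SD, n = 4; exact permutation test, two-sided, p = 0.125 for both). In equal-sized lists these differences were 6.36 ± 0.969 and -36.3 ± 1.70 percentage points.

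Taken over all distances from a gene end, microRNA genes inside protein-coding genes carried peaks more often than intergenic ones in each library. Of 794 members wholly inside a protein-coding gene, 24.7% were occupied in LSC 1 and 24.7% in LSC 2, against 36.8% and 49.1% in HSC 1 and HSC 2. Of 392 intergenic members, 19.1% and 15.3% were occupied in LSC 1 and LSC 2, against 24.0% and 34.7% in HSC 1 and HSC 2, and 7 members overlapped a gene in part and entered neither class. Inside minus intergenic came to 5.55 and 9.38 percentage points in LSC 1 and LSC 2, against 12.8 and 14.4 in HSC 1 and HSC 2, a mean of 10.5 ± 3.93 (SD, n = 4; exact permutation test, two-sided, p = 0.125). For 2 kb bins the shares inside protein-coding genes were 7.08% and 6.51% in LSC 1 and LSC 2, against 14.0% and 27.5% in HSC 1 and HSC 2, and outside them 2.47% and 2.30% in LSC 1 and LSC 2, against 5.56% and 14.4% in HSC 1 and HSC 2. The bins thus had a mean difference of 7.59 ± 4.13 percentage points in the same direction. The inside minus intergenic difference of members was 6.14 points lower in LSCs than in HSCs by group means of 7.47 and 13.6 (exact permutation test, two-sided, p = 0.33), and in equal-sized lists the LSC and HSC means were 7.35 and 6.93. In those lists 23.2% and 24.7% of members inside were occupied in LSC 1 and LSC 2, against 22.3% and 21.4% in HSC 1 and HSC 2, beside 6.29% and 6.51% of inside bins in LSC 1 and LSC 2, against 5.93% and 6.67% in HSC 1 and HSC 2. For intergenic members the shares were 17.9% and 15.3% in LSC 1 and LSC 2, against 15.3% and 14.5% in HSC 1 and HSC 2, beside 2.14% and 2.30% of intergenic bins in LSC 1 and LSC 2, against 2.08% and 2.44% in HSC 1 and HSC 2. Members inside lay above inside bins by a mean of 20.0 ± 2.55 percentage points, and intergenic members above intergenic bins by 17.1 ± 3.11 (SD, n = 4 each). Members inside did not stand above intergenic ones at every distance from a gene end. Under 1 kb, members inside had 60.6% and 63.3% in LSC 1 and LSC 2, against 69.7% and 76.1% in HSC 1 and HSC 2. Intergenic members there had 65.5% and 72.4% in LSC 1 and LSC 2, against 75.9% and 82.8% in HSC 1 and HSC 2. Members inside were also the lower from 20 to 100 kb and the higher from 1 to 5 kb in each library. At other distances the order differed between libraries.

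**Figure D3:**
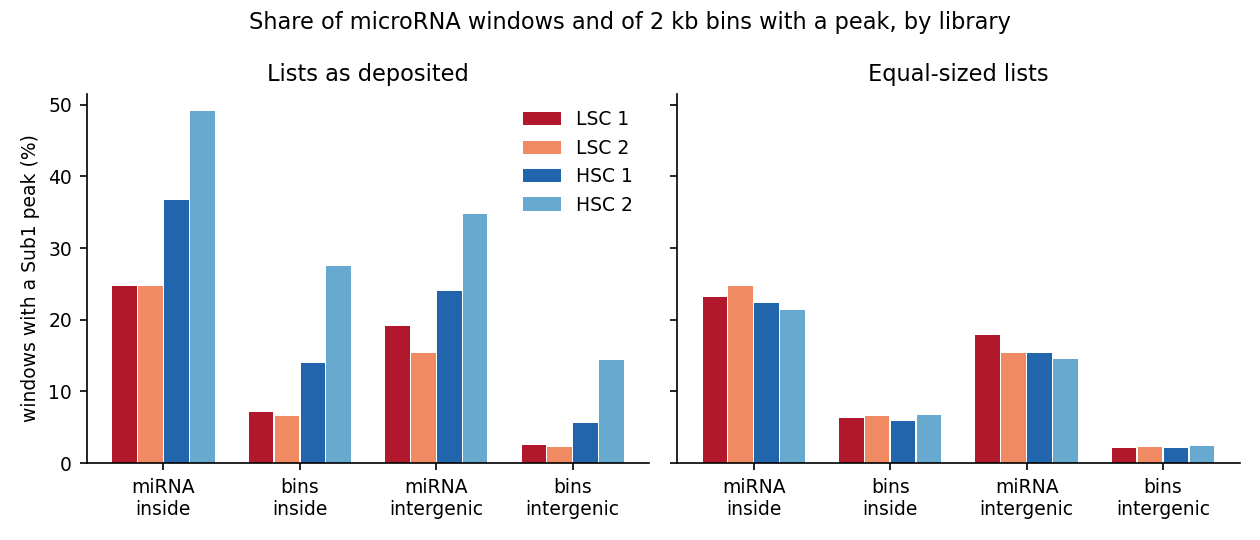
Bars give the percent of windows with a Sub1 peak in LSC 1, LSC 2, HSC 1 and HSC 2, for microRNA genes and 2 kb bins, inside protein-coding genes and intergenic, with the deposited lists on the left and equal-sized lists of 33885 peaks on the right. Members stood above bins of the same position in each library, and the rise toward HSC 2 in the deposited lists, to 49.1% of members inside, was not seen in equal-sized lists.

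Windows that hold a start of a protein-coding gene were mostly occupied. Of 76 such windows, 80.3% and 82.9% had a peak in LSC 1 and LSC 2, against 90.8% and 88.2% in HSC 1 and HSC 2. For the 1117 other windows the shares were 19.2% and 17.7% in LSC 1 and LSC 2, against 28.8% and 41.5% in HSC 1 and HSC 2. Without those 76 windows, members inside protein-coding genes still stood above intergenic ones in 4 of 4 libraries, by a mean of 8.44 ± 4.16 percentage points (SD, n = 4; exact permutation test, two-sided, p = 0.125). Starts came from the RefSeq promoter table, which matched 79.9% of protein-coding genes, so some windows of the second kind may hold a start that is not in it.

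Distance to the nearest annotated end of a protein-coding gene, either end since the annotation carries no strand, ordered the members in every library. Of 145 members under 1 kb from an end, 62.1% and 65.5% were occupied in LSC 1 and LSC 2, against 71.0% and 77.2% in HSC 1 and HSC 2. From 1 to 5 kb (257 members) the shares were 40.9% and 42.8% in LSC 1 and LSC 2, against 61.1% and 70.0% in HSC 1 and HSC 2. From 5 to 20 kb (295 members) they were 20.0% and 15.9% in LSC 1 and LSC 2, against 31.5% and 47.1% in HSC 1 and HSC 2. Over 100 kb from an end (195 members) they were 1.03% and 0.513% in LSC 1 and LSC 2, against 2.56% and 14.4% in HSC 1 and HSC 2. Bins at the same distances had lower shares, for example 17.9% and 18.5% in LSC 1 and LSC 2, against 30.3% and 43.8% in HSC 1 and HSC 2, from 1 to 5 kb. In equal-sized lists members under 1 kb from an end were occupied at 60.7% and 65.5% in LSC 1 and LSC 2, against 60.0% and 60.0% in HSC 1 and HSC 2, and members over 100 kb away at 1.03% and 0.513% in LSC 1 and LSC 2, against 1.03% and 0.513% in HSC 1 and HSC 2. In the deposited lists shares thus fell with distance in members and bins alike. With inside and intergenic members pooled, members stood above bins at every distance in each library. Members inside alone fell below inside bins from 20 to 100 kb in LSC 1, at 2.26% against 2.39%. Over 100 kb they did so in LSC 2, at 0% against 0.299%. There HSC 1 had 1.37% against 1.73%, and HSC 2 had 8.22% against 10.4%.

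**Figure D4:**
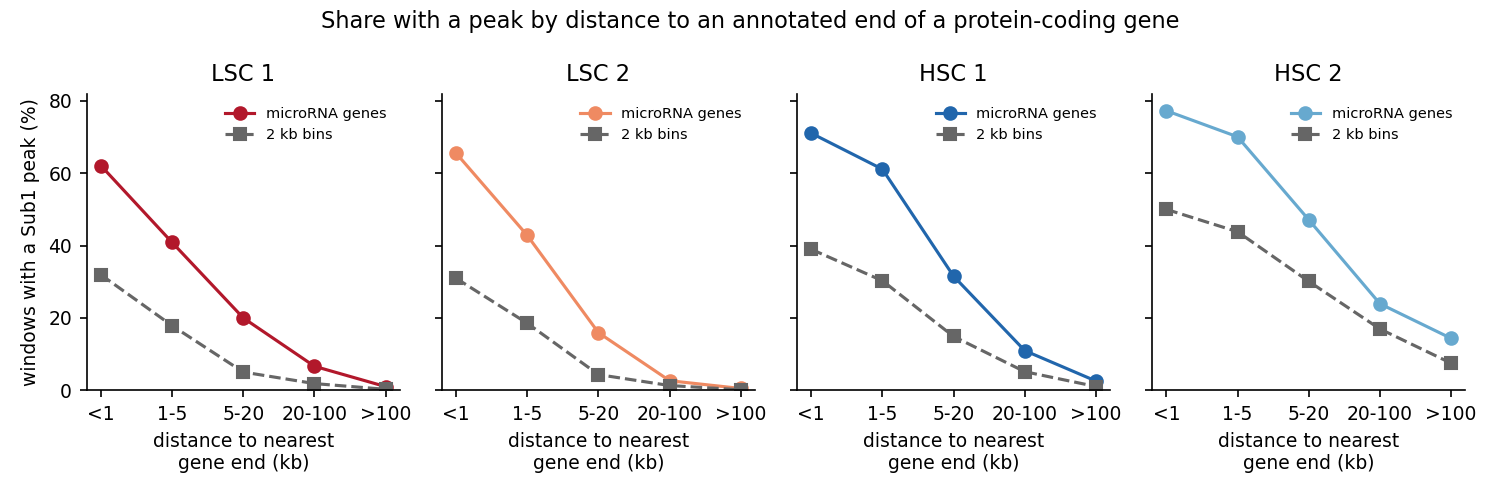
Each panel is a library, and lines give the percent of microRNA windows (solid) and 2 kb bins (dashed) with a peak by distance to the nearest annotated end of a protein-coding gene, in kb. Under 1 kb the members reached 62.1% and 65.5% in LSC 1 and LSC 2, against 71.0% and 77.2% in HSC 1 and HSC 2, and each line fell with distance.

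Members on the strand of their host had peaks more often than members on the other strand. Of 493 members on the host's strand, 29.6% and 28.8% were occupied in LSC 1 and LSC 2, against 44.2% and 58.0% in HSC 1 and HSC 2. For 80 members on the opposite strand the shares were 21.3% and 18.8% in LSC 1 and LSC 2, against 25% and 40% in HSC 1 and HSC 2. The mean difference was 13.9 ± 5.50 percentage points, in 4 of 4 libraries (SD, n = 4; exact permutation test, two-sided, p = 0.125), and 221 members had no strand to compare. In equal-sized lists it was 9.31 ± 1.85 percentage points. Peaks carry no strand, so the host's strand and the peak are related only by place.

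The 638 host genes had peaks at their ends more often than protein-coding genes as a whole. Within 1 kb of either end, 77.6% and 74.3% of hosts had a peak in LSC 1 and LSC 2, against 79.5% and 86.7% in HSC 1 and HSC 2. For all 21883 protein-coding genes the shares were 54.6% and 52.1% in LSC 1 and LSC 2, against 57.8% and 68.4% in HSC 1 and HSC 2. Among members more than 1 kb from any gene end, those whose host had a gene-end peak were occupied in 26.8% and 27.4% of cases in LSC 1 and LSC 2, against 44.8% and 54.7% in HSC 1 and HSC 2. Those whose host had none were occupied in 4.22% and 3.88% in LSC 1 and LSC 2, against 5.22% and 16.8% in HSC 1 and HSC 2. The mean difference was 30.9 ± 9.13 percentage points (SD, n = 4; exact permutation test, two-sided, p = 0.125). Host length moved with these values: the median host was 13.7 kb long for the 149 inside members occupied in all 4 libraries and 117 kb for the 356 occupied in none, and its part in the difference was not tested.

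Peaks at members were wider than peaks in general, and fewer than 3 in 4 occupied hairpins lay under one. The median width was 1552 and 1964 bp in LSC 1 and LSC 2, against 752.5 and 712.5 bp in HSC 1 and HSC 2, while over all peaks it was 588 and 838 bp in LSC 1 and LSC 2, against 372 and 461 bp in HSC 1 and HSC 2. A wider peak overlaps a window more readily, so width and occupancy are not independent. Their median fold was 28.3 and 28.7 in LSC 1 and LSC 2, against 10.1 and 8.85 in HSC 1 and HSC 2. Of occupied hairpin entries, 64.7% and 71.8% lay under a peak in LSC 1 and LSC 2, against 56.0% and 53.8% in HSC 1 and HSC 2. The summit of the strongest peak lay upstream of the hairpin, by the hairpin's strand, in 57.4% and 60.7% of cases in LSC 1 and LSC 2, against 56.3% and 56.0% in HSC 1 and HSC 2. Summits lay a median of 670.5 and 876.5 bp from the hairpin centre in LSC 1 and LSC 2, against 671.5 and 729.5 bp in HSC 1 and HSC 2.

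The strongest shared members, ordered by the weakest of their 4 ranks and taken once per locus, included Mir191 and Mir142 beside many hairpins close to a gene end. Inside protein-coding genes they were Mir191, Mir5136, Mir7048, Mir7045, Mir707, Mir6418, Mir5123, Mir695, Mir3082 and Mir1932. Mir5136, opposite in strand to Lbhd1 and 109 bp from a gene end, had folds of 261 and 200.4 in LSC 1 and LSC 2, against 62.9 and 108 in HSC 1 and HSC 2. Mir7045, inside the chromatin remodeller gene Chd4, had folds of 258 and 201 in LSC 1 and LSC 2, against 58.7 and 81.2 in HSC 1 and HSC 2. The intergenic ones were Mir219a-1, Mir142, Mir3569, Mir2861, Mir320, Mir6516, Mir1945, Mir5615-1, Mir688 and Mir3069. Mir219a-1 lies 303 bp from a gene end, and in LSC 2, HSC 1 and HSC 2 the summit of its peak lay inside Slc39a7, 6.21 to 6.31 kb away. Mir320 lies 39 bp from a gene end, and its peak had folds of 248 and 162 in LSC 1 and LSC 2, against 38.1 and 53.0 in HSC 1 and HSC 2.

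Few members were occupied in LSC 1 and LSC 2 and in no HSC library. There were 2, Mir700 and Mir7229, beside 0.0878% of bins, and 78 had the reverse, beside 2.72% of bins, while pairs mixing 1 LSC and 1 HSC library alone had 5, 18, 2 and 2 members. When 1 library was left out, the members of LSCs alone numbered 10 without LSC 1, 12 without LSC 2, 6 without HSC 1 and 7 without HSC 2, and those of HSCs alone 105, 111, 241 and 115 in the same order. No test of these counts can pass 0.05 with 4 libraries. Mir700, inside Rcan3 on chromosome 4 at 135416555 to 135416633, lay under peaks of fold 27.8 and 8.90 in LSC 1 and LSC 2, and the nearest HSC peaks were 4506 and 1095 bp away in HSC 1 and HSC 2. Mir7229, intergenic on chromosome 5, had folds of 9.02 and 7.45 in LSC 1 and LSC 2, and its nearest HSC peaks were 46406 and 7158 bp away in HSC 1 and HSC 2. Both kept this pattern in equal-sized lists, where 14 members had it beside 0.437% of bins and 6 had the reverse beside 0.274% of bins. Mixed pairs then had 2, 7, 8 and 6 members. Mir148a, 1 of the 14, had peaks of fold 61.5 and 37.4 in LSC 1 and LSC 2, against 7.86 and 6.61 in HSC 1 and HSC 2, so the HSC peaks were present in the deposited lists and dropped with the shorter ones. The same held for Mir7082, inside Raver1, at fold 214 and 61.4 in LSC 1 and LSC 2, against 5.89 and 9.33 in HSC 1 and HSC 2. Around Mir7082 HSC peaks of fold 32.9 and 25.5 in HSC 1 and HSC 2 lay within 5 kb.

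Members occupied in both HSC libraries alone were led by Mir7012, Mir6944, Mir7011, Mir6367 and Mir6952. Mir7012, inside Dennd4b on chromosome 3, was overlapped by peaks of fold 50.8 and 70.8 in HSC 1 and HSC 2, ranked 1301 and 1294 in their lists. Both LSC libraries had strong peaks that ended 1159 and 1535 bp before the hairpin in LSC 1 and LSC 2, just outside the window, with folds of 159 and 81.4. The summit lay at the same base, 90266559, in LSC 1 and in HSC 1. In HSC 2 the peak was one broad region from 90247439 to 90269475 with its summit inside Slc39a1, 21.67 kb from the hairpin. The Mir7012 window held 3 and 2 peaks in HSC 1 and HSC 2, the nearest 3 bp from the hairpin in HSC 1 and over it in HSC 2. A strong peak in Dennd4b was thus common to the groups, and the further peaks at the hairpin were called in HSC lists alone. At Mir7011, inside Sema4a, the strongest peak within 5 kb was present in all 4 libraries, at fold 20.2 and 9.27 in LSC 1 and LSC 2, against 21.4 and 16.1 in HSC 1 and HSC 2. Mir6944, inside Dbn1, had window peaks of fold 11.5 and 20.5 in HSC 1 and HSC 2, and outside the window peaks inside Prr7, with summits 4.88 to 4.94 kb away, had folds of 60.6 and 44.5 in LSC 1 and LSC 2, against 38.1 in HSC 1. Of members occupied in HSC 1 and HSC 2 together, 59.8% also had a peak in LSC 1 and LSC 2, against 39.8% of bins, and in equal-sized lists 86.8% did, against 75.7% of bins.

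**Figure D5:**
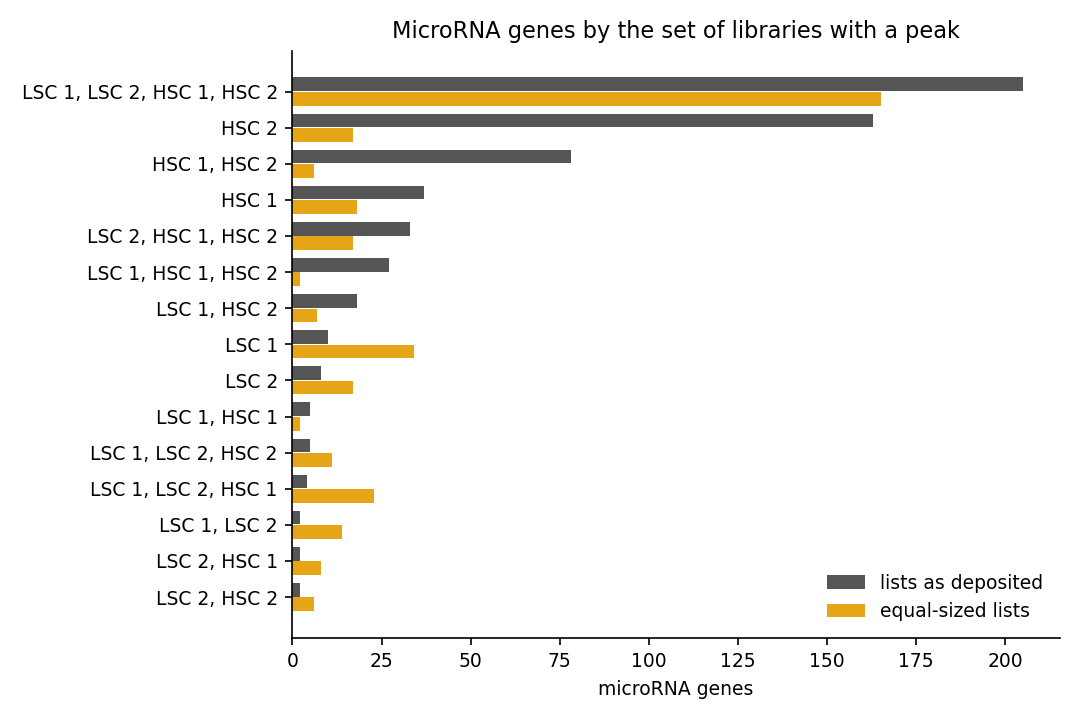
Bars count microRNA genes by the exact set of libraries in which they had a peak, for the deposited lists (grey) and for equal-sized lists (yellow). The set of all 4 libraries held 205 members in the deposited and 165 in the equal-sized lists, where 1.90% of bins were in that set, HSC 2 alone held 163 and 17, and both LSC libraries alone held 2 and 14.

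The large microRNA clusters of germ line, placenta and embryo named here had peaks in 1 library alone or in none. The run of 71 members inside Sfmbt2 on chromosome 2 had no peak in LSC 1, LSC 2 or HSC 1 and 14 occupied members in HSC 2, with a highest fold of 5.55. The imprinted run of 39 members from Mir379 to Mir3072 on chromosome 12 likewise had 11 occupied members in HSC 2 alone, with a highest fold of 5.55. In HSC 2, the longest list, 44.5% of all members and 19.3% of bins were occupied, so both runs lay below the share of all members. Their highest fold of 5.55 was under the median of 5.90 over all HSC 2 peaks. No library had a peak at the 19 X-linked members from Mir743 to Mir465, the 16 members from Mir770 to Mir136, or the 9 members from Mir290a to Mir295, which mark embryonic stem cells. The X-linked run of 7 members from Mir450b to Mir322 had 3 occupied members in LSC 1 alone, with a highest fold of 9.92. The hairpins of the Sfmbt2 run are near-copies of each other, and values of single members there are uncertain.

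Genes of the proteins that make and use microRNAs mostly carried peaks at their ends. A gene-end peak was found at 24 and 22 of 26 such genes in LSC 1 and LSC 2, against 22 and 23 in HSC 1 and HSC 2, and 22 had one in all 4. Of all protein-coding genes 54.6% and 52.1% had one in LSC 1 and LSC 2, against 57.8% and 68.4% in HSC 1 and HSC 2. Drosha had folds of 144 and 108 in LSC 1 and LSC 2, against 34.1 and 42.5 in HSC 1 and HSC 2. Tarbp2, a partner of Dicer1, had folds of 314 and 255 in LSC 1 and LSC 2, against 117 and 94.2 in HSC 1 and HSC 2. Xpo5, which exports hairpins to the cytoplasm, had folds of 291 and 216 in LSC 1 and LSC 2, against 59.7 and 75.3 in HSC 1 and HSC 2. Tnrc6a, a scaffold of silencing, had no gene-end peak but peaks inside the gene in all 4 libraries. Lin28b, which blocks let-7 in fetal stem cells, had no gene-end peak, and its only peak was 1 of fold 3.66 in HSC 2.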

How the data were processed

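The deposited files are 1 list of peaks per library, from CUT&Tag with 17 to 20 cycles of PCR per the labels' protocols. Per the submitters' processing notes, the tools were FastQC 0.11.5, Bowtie2 2.2.9, MACS2 and ChIPseeker with the build mm10. The notes name them without settings. The deposited columns hold a fold (ratio of pileup to background), -log10 of the p-value, -log10 of the q-value and an integer score, as the authors' caller gave them. Peaks are listed per library. Depth in reads is unknown, so no counting interval is given.

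Windows were the gene and 1 kb on each side, slightly longer than the 2 kb bins, with a minimum overlap of 1 bp. A bin was placed in a class and at a distance by its midpoint. Tests used libraries as units and were exact permutation tests (6 assignments of 2 against 2, or 16 sign flips over 4 libraries). Overlaps and tests were checked on simulated data. Figures were drawn with matplotlib 3.10.9, and values computed in Python 3.11.15 with pandas 2.3.3, NumPy 2.4.6 and SciPy 1.17.1. Named members were all those of the lists, the 10 strongest in all 4 libraries inside and outside protein-coding genes, up to 10 of each group alone, and the largest runs. Peaks within 5 kb, the snoRNA and tRNA classes and examples were looked up with values in view. Members and lists were chosen with earlier results of these data known. Each peak name starts with H4-Cut, and no label says why.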

Additional observations from a re-analysis of the deposited data

Results flagged for a closer look

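Peaks in data that no comparison used were of 2 kinds, and neither has a control sample to set it against. Outside the main chromosomes lay 354 and 300 peaks in LSC 1 and LSC 2, against 686 and 1263 in HSC 1 and HSC 2. A further 48 genes with the microRNA biotype but other symbols were not members, and 15 and 11 of them had a peak in LSC 1 and LSC 2, against 16 and 35 in HSC 1 and HSC 2. These are 31.25% and 22.9% in LSC 1 and LSC 2, against 33.3% and 72.9% in HSC 1 and HSC 2. Members stood at 23.1% and 21.9% in LSC 1 and LSC 2, against 32.8% and 44.5% in HSC 1 and HSC 2. In equal-sized lists the 48 genes stood at 29.2% and 22.9% in LSC 1 and LSC 2, against 20.8% and 22.9% in HSC 1 and HSC 2. With 2 libraries in a group, no library could be tested as standing apart from its group.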

How the results depend on the processing

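Of 123 values recomputed under other settings, 96 kept their direction or stayed within 1.5 times, 9 reversed and 18 moved. In equal-sized lists the share of members occupied, LSC minus HSC, was 1.97 percentage points ranked by -log10 p and 1.97 by fold, and 0.503 in lists of 16942 peaks. Inside protein-coding genes these were 2.08, 2.08 and 0.063, and for intergenic members 1.66, 1.66 and 1.4. Leaving out 1 library at a time gave -22.0 to -10.3 for all members, -24.4 to -12.1 inside and -17.5 to -6.76 intergenic.

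Inside minus intergenic stayed positive in every setting run, from 4.27 to 14.6, as did members minus bins, from 13.7 to 26.5. The members in both LSC libraries alone numbered 9 without extension, 10 by summits, 14 and 14 in equal-sized lists by -log10 p and by fold, and 11 in lists of 16942 peaks, with 6 to 12 when 1 library was left out. Those in both HSC libraries alone numbered 21 without extension, 6 and 6 in equal-sized lists by -log10 p and by fold, and 8 in lists of 16942 peaks, with 105 to 241 when 1 library was left out, the highest without HSC 1. Those in all 4 numbered 111 without extension, 95 by summits, 128 in lists of 16942 peaks, 120 over 1 kb from gene ends, and 209 to 238 when 1 library was left out. The cause of these moves was not tested beyond the change of setting itself.

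With libraries of the same number as a replicate block, the LSC minus HSC differences were -16.1, -18.3 and -12.1 for all, inside and intergenic members (exact permutation test, two-sided, p = 0.5, the smallest that 2 pairs allow). The samples share only a number, so the block is no pairing by design. List length, 2 libraries per group and the absence of read depth limit every comparison of LSCs with HSCs.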
